A study of Mus musculus with 12 samples.

Results

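Input RNA of the newborn mouse retina was set against input RNA of the embryonic mouse cortex, that is, against RNA sequenced without any immunoprecipitation. Of the 12 libraries of the series 4 are inputs: retina input replicates 1 and 2, cortex input replicate 2, and a library labelled cortex input replicate 1 that is shown apart throughout, because its profile is not that of embryonic cortex. All mice were wild-type C57BL/6. The cortical samples date from E12.5 (day 12.5 of gestation) and the retinal samples from P0 (the day of birth), so that tissue and age differ together and cannot be told apart. The other 8 libraries are immunoprecipitates (IPs) made with antibodies to Ythdf1 or Ythdf2, proteins that bind methylated mRNA, with 2 replicates per antibody and tissue. They gave a second reading of each tissue difference. Its levels come from libraries whose levels do not enter the input difference, but both readings share 1 fit, in which the IP replicates supply most of the estimate of spread, and the second also carries any tissue difference in recovery by the antibodies. Tissue was dissociated before use, and the labels do not say how many animals a library pools. Nothing says that replicates came from separate animals, so the p-values measure only the spread between these libraries, which may be technical. Genes with at least 10 counts in 2 or more of the 4 inputs, or in cortex input replicate 2, were kept: 17824 of the 52550 genes in the table, 13868 of them protein-coding.

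The retina inputs held 39499994 and 36236531 counts and cortex input replicate 2 held 33127393. Protein-coding genes took 10.4%, 11.5% and 41.1% of these. Levels are given as normalised CPM, in which library size is corrected by the trimmed mean of M values (TMM), and 3 counts, used as the floor for genes at 0, equalled 0.107, 0.116 and 0.0329 normalised CPM. Over the protein-coding genes tested, the Spearman correlation was 0.904 between the retina inputs and 0.717 and 0.800 between them and cortex input replicate 2. Cortex input replicate 1, as labelled, had a total of 36083984, of which 71.0% were mitochondrial ribosomal RNA and 4.65% protein-coding, and its correlations with the other 3 inputs ran from 0.520 to 0.580. In that library Camk2a, a kinase of mature excitatory synapses, was at 1096 normalised CPM (8967 counts), against at most 2.60 in the other 3 inputs.

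As background, the neural retina is built from progenitors of the optic cup that express eye-field homeodomain factors. They give rise in an overlapping order to ganglion cells, horizontal cells, cones and amacrine cells, and later to rods, bipolar cells and Müller glia, and around birth the mouse retina still holds dividing progenitors beside many new rod precursors. At E12.5 the cortex consists mostly of neuroepithelial and radial glial cells patterned by Emx and Dmrt factors, with the first neurons, including Cajal-Retzius cells, above them. The embryo then still carries primitive red cells, which make embryonic globins.

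The promoters of genes that define new neurons in each tissue illustrate how regulatory sequence can be read beside these levels. Otx2 and Crx, the homeodomain factors of photoreceptor precursors, are known to bind sites around TAATCC, and proneural basic helix-loop-helix factors of the Neurod and Neurog families bind E-boxes such as CAGATG. Promoters from RefSeq (GRCm38.p6, 250 bases before to 50 after the annotated start) were searched on both strands for TAATCC. The same was done for CAGATG. Neither motif contains the other. TAATCC was found in the promoters of 8.14% of 27025 genes, and in those of 7 of the 16 photoreceptor genes higher in the retina that had a promoter entry (of 20). It was found in 0 of 11 cortical neuron genes higher in the cortex that had an entry (of 12). CAGATG was found for 19.2% of all genes, for 4 of those 11 cortical genes and for 5 of those 16 photoreceptor genes. The promoters of 4 photoreceptor genes are shown with TAATCC or its reverse complement in capitals, as examples of photoreceptor genes called higher in the retina whose promoters hold the motif; they lie at chr7:15879906-15880205 (minus strand), chr1:87803430-87803729 (plus), chr3:108092816-108093115 (plus) and chr11:72037460-72037759 (minus).
Crx: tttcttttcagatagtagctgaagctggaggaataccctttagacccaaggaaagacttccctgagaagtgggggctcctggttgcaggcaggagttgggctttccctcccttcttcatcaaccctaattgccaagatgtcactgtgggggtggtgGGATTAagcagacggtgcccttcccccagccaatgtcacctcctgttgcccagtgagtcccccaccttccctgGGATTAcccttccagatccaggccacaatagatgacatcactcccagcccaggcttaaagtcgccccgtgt
Sag: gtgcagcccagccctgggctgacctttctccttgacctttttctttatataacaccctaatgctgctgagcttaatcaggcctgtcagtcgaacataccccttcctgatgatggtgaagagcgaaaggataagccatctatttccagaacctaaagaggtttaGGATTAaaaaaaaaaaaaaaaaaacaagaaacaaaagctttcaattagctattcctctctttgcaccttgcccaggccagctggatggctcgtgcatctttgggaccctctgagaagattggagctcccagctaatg
Gnat2: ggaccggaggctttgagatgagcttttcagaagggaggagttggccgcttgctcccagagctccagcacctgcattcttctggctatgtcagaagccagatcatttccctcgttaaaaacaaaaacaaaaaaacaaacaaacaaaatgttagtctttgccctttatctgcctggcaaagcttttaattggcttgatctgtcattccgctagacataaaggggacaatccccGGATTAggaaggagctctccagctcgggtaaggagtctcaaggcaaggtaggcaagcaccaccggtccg
Aipl1: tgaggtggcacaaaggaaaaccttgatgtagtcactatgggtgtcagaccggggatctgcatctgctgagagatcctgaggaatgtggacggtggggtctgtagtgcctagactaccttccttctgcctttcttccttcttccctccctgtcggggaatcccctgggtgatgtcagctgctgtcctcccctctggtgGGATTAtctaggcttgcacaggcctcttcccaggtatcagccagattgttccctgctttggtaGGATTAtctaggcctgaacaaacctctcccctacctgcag
In Crx the matches began 94 and 21 bases before the start, in Sag 87, in Gnat2 19, and in Aipl1 the upstream match began 53 bases before it. Promoters of 2 cortical neuron genes follow, with CAGATG or its reverse complement in capitals, at chr11:98329596-98329895 (minus) and chr1:172057547-172057846 (minus).
Neurod2: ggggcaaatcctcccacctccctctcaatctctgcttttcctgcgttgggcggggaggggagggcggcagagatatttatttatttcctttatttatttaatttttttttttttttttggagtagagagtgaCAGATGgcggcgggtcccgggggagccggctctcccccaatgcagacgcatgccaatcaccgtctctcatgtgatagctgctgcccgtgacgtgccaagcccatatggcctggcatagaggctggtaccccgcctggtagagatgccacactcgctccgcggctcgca
Nhlh1: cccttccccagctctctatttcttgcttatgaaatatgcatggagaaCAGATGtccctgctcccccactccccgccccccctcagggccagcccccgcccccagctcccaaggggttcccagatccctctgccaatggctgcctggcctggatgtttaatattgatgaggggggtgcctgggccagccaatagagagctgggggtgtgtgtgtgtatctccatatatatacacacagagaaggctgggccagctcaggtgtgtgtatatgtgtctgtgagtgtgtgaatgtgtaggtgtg
The match began 118 bases before the start in Neurod2 and 203 in Nhlh1. A match is a string of letters in this window and no evidence of binding.

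Between the retina inputs and cortex input replicate 2, edgeR's quasi-likelihood test called 2029 genes higher in the retina (11.4% of 17824) and 1926 higher in the cortex (10.8%) at a Benjamini-Hochberg adjusted p under 0.05, and the term called is used in this sense below. The smallest called difference was 0.98 on the log2 scale. The filter itself fixed the direction of some genes: 2976 were kept through cortex input replicate 2 alone, of which 280 were called higher in the cortex, and 473 were kept with under 10 counts there, of which 282 were called higher in the retina. Differences of at least 16-fold were fitted for 402 and 435 of them. The median over all genes tested was -0.15. Genes named below that were kept through cortex input replicate 2 alone include Emx1, Dmrt3, Wnt8b, Lhx5, Trp73, Rspo3, Ttr, Clic6, Col12a1 and the embryonic globins. Genes kept through the retina inputs alone include Crx, Nr2e3, Opn1sw, Gnb3, Pdc, Prph2, Rax, Foxn4, Ptf1a, Pou4f2 and Isl2. Rbp3, Cyp26a1, Cplx3, Dapl1, Hkdc1, Eno1b and Zbtb9 are also among them. For both sets the filter fixed the direction in the inputs. The lone cortex library was assumed to vary like the other groups, and with the spread taken from the 3 input libraries alone 505 and 402 genes were called. Scaling by library totals instead of TMM moved the median of all differences to -2.09, so that signs of differences between 0 and about 1.94 turn, and left 345 genes higher in the retina and 8793 higher in the cortex. Of the genes chosen by the naming rule, Akap2, Alas2, Ccnd1, Dlx6, Emx2, Fzd5, Glul, Hes5, Hmga1, Hmga2, Igf2bp3, Mbp, Mest, mt-Co3, Neurod1, Nnat, Opn1sw, Rax, Rnd2, Rrm1, Six6, Sox1, Sox2, Sp9, Syn2, Tfap2a and Zic1 overlap another annotated gene, and since the strand setting of the counting is not given in the sources used here, part of their reads could belong to it.

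**Figure D1:**
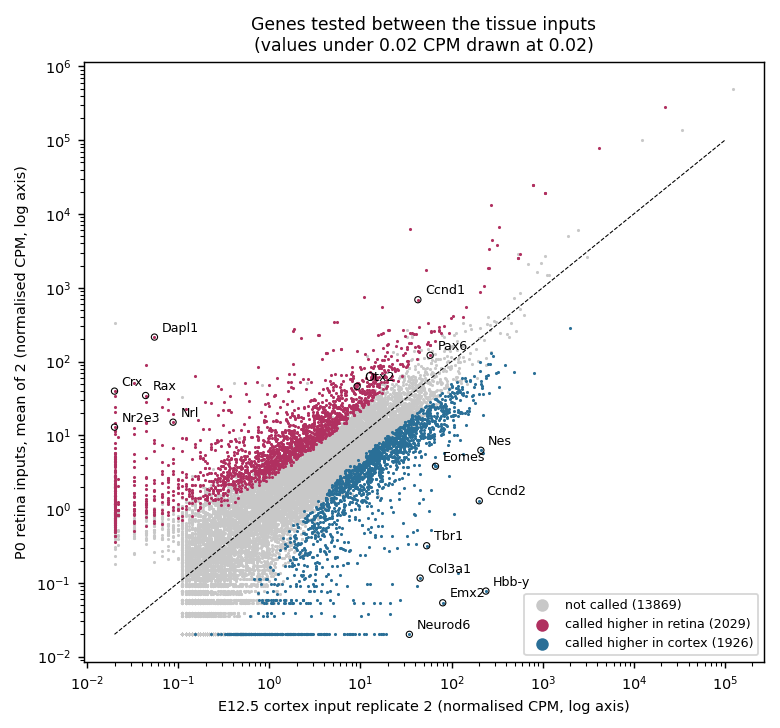
Normalised CPM of each gene tested in cortex input replicate 2 (x axis, log scale) and as the mean of the 2 retina inputs (y axis, log scale), with genes called higher in the retina in red (2029), higher in the cortex in blue (1926) and the rest in grey. Crx and Nr2e3 sit at the left edge with no count in the cortex, and Neurod6 at the lower edge with no count in the retina.

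Of the gene lists, photoreceptor precursors had the largest median difference toward the retina. Of 21 photoreceptor precursor genes tested, 20 were called higher in the retina and 0 higher in the cortex, with a median log2 difference of 6.26 (6.15 with genes at 0 in the cortex set to their lower bound). Of the 21, 7 had no count in 1 of the tissues. Crx, Nr2e3, Opn1sw, Prph2 and Gnb3 are among the members whose direction the filter fixed. In bulk RNA, more cells of a type and more RNA per cell cannot be told apart. Crx, which drives photoreceptor genes (chromosome 7, 15865947 to 15879968, GRCm38), had 1094 and 1044 counts in the retina inputs (39.1 and 40.3 normalised CPM), 0 in cortex input replicate 2 and 0 in the library shown apart. Both retina inputs were thus nearly equal, and the level was at least 1204-fold higher than in the cortex (adjusted p = 3.3e-05). Nr2e3, the nuclear receptor of rods (chromosome 9, 59942771 to 59960659), had 385 and 312 counts against 0, at least 391-fold higher (adjusted p = 1.3e-05). Nrl, the leucine zipper factor that commits cells to the rod fate, stood at 17.6 and 12.5 normalised CPM against 0.0878 in the cortex (log2 difference 7.37, SE 0.63, adjusted p = 3.6e-05). Prdm1, which favours photoreceptor over bipolar fate, stood at 17.5 and 26.7 against 0.308 (6.15, SE 0.77). In the 4 retina IPs Crx ran from 29.7 to 70.7 normalised CPM and in the 4 cortex IPs from 0 to 0.215, with no overlap (adjusted p = 4.4e-08).

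Cone and rod genes were both present at birth. Opn1sw, the short-wave cone opsin, had 386 and 239 counts against 0 (at least 349-fold higher, adjusted p = 0.00017), but it overlaps Calu, and its reads are uncertain in origin. Thrb and Rxrg, nuclear receptors of cones, had 56 and 91 and then 69 and 63 counts in the retina inputs, against 3 and 0 in the cortex. The transduction genes Gngt2 (74.2 and 52.0 against 0.154 normalised CPM), Gnb3 (13.1 and 9.92 against 0.0439), Pde6h (1.75 and 2.28 against 0) and Sag (8.68 and 4.98 against 0.154) were all called. Pdc, a regulator of photoreceptor G proteins, had 826 and 1012 counts against 0 (at least 1040-fold higher, adjusted p = 1.1e-05). Prph2, of the outer segment disc rim, had 217 and 145 against 0. Otx2, which acts upstream of Crx, differed less, at 48.1 and 44.1 normalised CPM against 9.19 (log2 2.33, SE 0.62, adjusted p = 0.017), and Neurod1 stood at 29.9 and 75.1 against 11.8 (2.15, SE 0.53). Gnat1 at 1.32 and 0.733 against 0.362 was the 1 member tested that was not called (adjusted p = 0.48).

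Among 20 genes of retinal progenitors and the eye field, 11 were called higher in the retina and 3 higher in the cortex (median 1.77). Rax, needed for the eye field, stood at 39.0 and 30.1 against 0.0439 normalised CPM (9.53, SE 0.78, adjusted p = 1.1e-05), and Six6 at 31.2 and 24.8 against 0.198 (7.13, SE 0.55). Both had 0 counts in the library shown apart. Six3, shared by eye and forebrain, differed less, at 84.1 and 58.1 against 8.06 (3.14, SE 0.56, adjusted p = 0.0018). Neurogenic genes followed: Atoh7, which permits ganglion cell fate, stood at 2.36 and 2.82 against 0.0988, and Hes6 at 56.3 and 44.6 against 9.35. Pax6, used by progenitors of both tissues, stood at 117 and 126 against 58.2 normalised CPM (1.06, SE 0.36), and its adjusted p of 0.05 lies just under the threshold. Lhx2, also shared, stood at 47.2 and 44.3 against 88.5 and was not called (adjusted p = 0.070). Toward the cortex, Sox2 (-1.10, SE 0.36), Cdh2 (-1.40, SE 0.36) and the gap junction gene Gja1 (-6.62, SE 0.44, adjusted p = 5.4e-06) were called, the last with 11 and 7 counts in the retina against 3008. Cdh2 was not called in the IPs (-0.27, adjusted p = 0.34).

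Of the D-type cyclins, which drive cells through G1, Ccnd1 and Ccnd2 differed in opposite directions, and Ccnd3, at 8.64 and 3.94 normalised CPM against 7.04, was not called (adjusted p = 0.84). Ccnd1 (chromosome 7, 144929931 to 144939925) stood at 816 and 562 normalised CPM in the retina and 42.7 in the cortex (log2 4.01, SE 0.51, adjusted p = 0.00021). Ccnd2 (chromosome 6, 127125162 to 127152193) stood at 0.928 and 1.66 against 202 (-7.28, SE 0.56, adjusted p = 7.3e-06). In the IPs both differed in the same direction as in the inputs. Ccnd1 ran from 248 to 551 in retina IPs and 17.9 to 23.7 in cortex IPs, and Ccnd2 from 1.72 to 2.85 and 153 to 345. Of 15 G1 cyclins and inhibitors tested, 4 were called higher in the retina and 2 in the cortex. Btg2, an antiproliferative gene of cells leaving the cycle (2.39, SE 0.41), and the inhibitor Cdkn2c (2.05, SE 0.40) were among the former, and Cdkn1c, an imprinted inhibitor (-1.48, SE 0.39), among the latter.

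Markers of the other retinal neurons were called more often toward the retina than toward the cortex. For retinal ganglion cells 9 of 20 genes tested were called higher in the retina and 2 higher in the cortex (median 2.23), and for amacrine and horizontal cells 12 of 21 and 2 (median 2.58). Pou4f2, the ganglion cell POU factor (chromosome 8, 78433010 to 78436645), had 83 and 69 counts against 0, at least 85.4-fold higher (adjusted p = 0.00049), and Isl2, a LIM factor of ganglion cells, had 58 and 37 against 0. Sncg, abundant in ganglion cells, stood at 27.2 and 18.1 normalised CPM against 0.121 (log2 7.52, SE 1.06), and Pou4f1 at 3.68 and 8.10 against 0.340. The ganglion cell list also held genes that cortical neurons use: Eomes was at 2.89 and 4.71 against 66.7 (-4.13, SE 0.45, adjusted p = 5.9e-05), Slc17a6 was likewise higher in the cortex, and Gap43 (14.5 and 14.4 against 8.48) and Ebf1 (2.89 and 5.21 against 4.27) were not called.

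Foxn4, which makes progenitors competent for amacrine and horizontal fates (chromosome 5, 114254164 to 114273807), had 827 and 470 counts against 0 (at least 724-fold higher, adjusted p = 4.2e-05). Ptf1a, the factor that commits them, had 131 and 42 against 0. Tfap2a, of postmitotic amacrine cells, stood at 24.3 and 33.2 normalised CPM against 0.604 (5.57, SE 0.54). Some members differed between the retina inputs: Neurod4 stood at 11.9 and 60.6 against 0.955, and Onecut2 at 3.32 and 17.7 against 1.76. Genes of inhibitory transmission were called too, with Gad2 at 6.61 and 16.3 against 1.49 and the vesicular transporter Slc32a1 at 3.75 and 2.28 against 0.296. Onecut2 did not pass the test in the IPs (0.15, adjusted p = 0.79). Meis2 and Lhx1, which the cortex also uses, were higher there (-1.36, SE 0.39, and -2.29, SE 0.59).

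Of 12 genes of bipolar cells and Müller glia tested, 7 were called higher in the retina and 0 in the cortex (median 1.49). With the 3 inputs alone these counts were 2 and 0. Dkk3, a secreted protein of retinal progenitors and glia, stood at 139 and 147 normalised CPM against 5.05 (4.82, SE 0.50, adjusted p = 4.9e-05). Glul, which makes glutamine in glia, stood at 124 and 91.5 against 20.3 and at 331 in the library shown apart. Cabp5, of bipolar cells, had only 28 and 17 counts against 0, and the later bipolar genes Vsx1 (0 and 0 against 22 counts) and Trpm1 (7 and 0 against 15) were not called.

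Retinoid genes set the tissues apart as well. Of 15 tested, 9 were higher in the retina and 0 in the cortex (median 3.18). Rbp3, the carrier of retinoids between photoreceptors and pigment epithelium, stood at 60.2 and 43.3 normalised CPM against 0.0329 (3 counts), a ratio of 1581 with a 95% counting interval of 541 to 7673. Aldh1a1 and Aldh1a3, retinoic acid synthases of dorsal and ventral retina, had 254 and 174 counts against 0 and 205 and 215 against 5. Cyp26a1, which degrades retinoic acid, had 151 and 112 counts against 0, at least 147-fold higher (adjusted p = 7.0e-05). Also among the 12 largest differences toward the retina were Dapl1 (248 and 181 against 0.0549 normalised CPM), Hkdc1, a hexokinase-like enzyme (389 and 403 counts against 0), the enolase copy Eno1b (336 and 220 against 0, adjusted p = 0.042) and Zbtb9 (169 and 143 against 0). Eno1b is a near copy of another gene and its reads are uncertain. In the IPs Eno1b (adjusted p = 0.34) and Zbtb9 (adjusted p = 1.00) were not called.

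**Figure D2:**
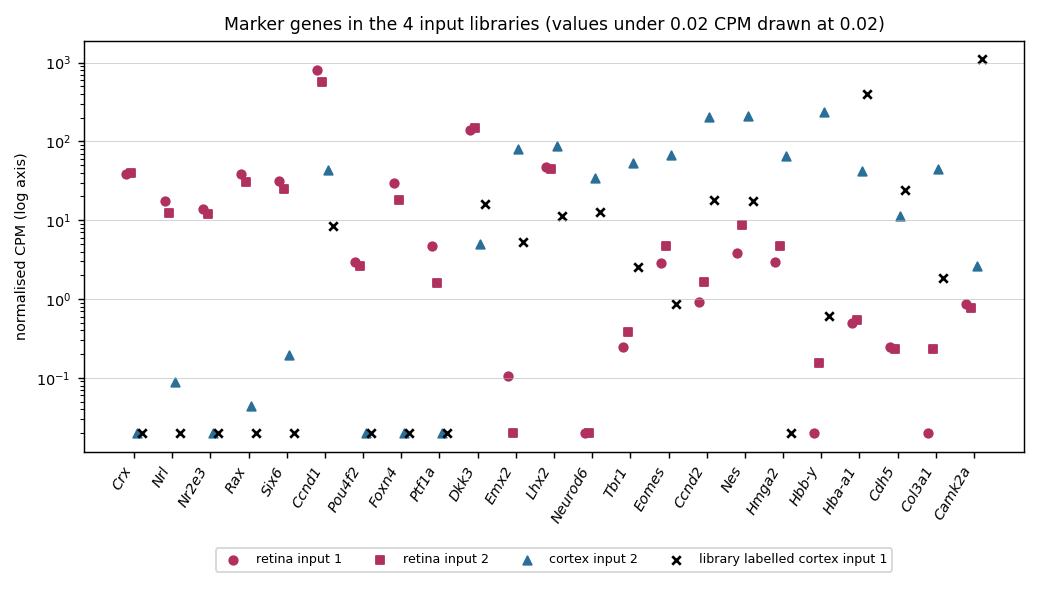
Normalised CPM (log axis) of 23 marker genes in retina input 1 (red circles), retina input 2 (red squares), cortex input 2 (blue triangles) and the library labelled cortex input replicate 1 (black crosses). From Crx to Dkk3 the retina inputs lie above the blue triangles, from Emx2 to Col3a1 below them, and in Camk2a the black cross lies at 1096.

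On the cortical side, 18 of 22 patterning and progenitor factors were called higher in the cortex and 2, Hes5 and Pax6, higher in the retina (median -3.87, or -3.25 with genes at 0 in the retina at their bound). Emx2, of dorsal cortical progenitors, had 3 and 0 counts against 7295, a ratio of 1440 with a 95% counting interval of 493 to 6983 (adjusted p = 7.3e-06). Emx1 had 0 and 0 against 365 counts, at least 36.0-fold higher in the cortex, and Dmrt3 had 0 and 0 against 1618. In the retina IPs Emx1, Emx2 and Neurod6 were at 0 in all 4 libraries, and in the cortex IPs their lowest values were 5.33, 20.1 and 14.1 normalised CPM. The nuclear receptors Nr2f1 and Nr2f2, which grade the cortex along its axes, differed less (-1.48, SE 0.35, and -1.66, SE 0.35), and both tissues held Lhx9 at similar levels (9.14 and 12.9 against 15.1, adjusted p = 0.44). Wnt8b, a signal of the cortical hem, had 3 and 0 counts against 1937, and Wnt3a 0 and 0 against 94.

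Genes of cortical neurons and intermediate progenitors followed, with 12 of 22 higher in the cortex and 2, Neurod1 and Rnd2, higher in the retina (median -1.56). Rnd2 was not called in the IPs (0.37, adjusted p = 0.20). Neurod6, of newly born cortical excitatory neurons (chromosome 6, 55677822 to 55681263), had 0 and 0 counts against 3138, at least 309-fold higher in the cortex (adjusted p = 8.5e-06). Tbr1, which specifies early deep-layer neurons, had 7 and 10 counts against 4862 (0.250 and 0.386 against 53.4 normalised CPM; -7.38, SE 0.47, adjusted p = 5.4e-06). Neurod2, whose promoter is shown above, stood at 1.96 and 0.733 against 48.3 (-5.15, SE 0.70), Bcl11b at 0.500 and 0.810 against 29.3 (-5.48, SE 0.47), and Nhlh1 at 1.39 and 1.00 against 8.90 (-2.89, SE 0.37). Neurog2, which both tissues use, stood at 13.2 and 11.7 against 27.4 and was not called (adjusted p = 0.068). Of 14 Cajal-Retzius genes 7 were higher in the cortex and 1, Calb2, higher in the retina. Lhx5 had 9 and 7 counts against 1659 (-5.93, SE 0.58, adjusted p = 3.7e-05), Trp73 3 and 0 against 325, and Zic1 stood at 10.2 and 6.64 against 94.9 normalised CPM. Reln, which amacrine cells also make, stood at 11.6 and 15.7 against 30.5 (-1.16, SE 0.39, adjusted p = 0.047), and in the IPs it was not called (-0.46, adjusted p = 0.13).

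Ventral telencephalic genes were detected in the cortex at low levels. Dlx5, Dlx6, Sp9 and Nkx2-1 had 158, 112, 200 and 97 counts in cortex input replicate 2 and 0 in both retina inputs, and all were called; they passed the filter through cortex input replicate 2 alone, which fixed their direction. That list of 17 was even in direction, with 4 genes called each way (median -3.19, or -1.04 with genes at 0 at their bound). Gad1, Gad2 and Npy were among the 4 higher in the retina, and Npy, a peptide of interneurons, had 128 and 127 counts against 0.

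Radial glia and neuroepithelial genes showed differences in both directions: 7 of 20 were higher in the cortex and 3 higher in the retina (median -0.76). Nes, an intermediate filament of neural progenitors (chromosome 3, 87971078 to 87980451), stood at 3.82 and 8.68 normalised CPM against 210 (-5.07, SE 0.54, adjusted p = 5.8e-05), with 99.4 to 283 in the cortex IPs and 5.71 to 7.96 in the retina IPs. Sox1 had 5 and 0 counts against 3771 (-8.77, SE 0.87), and Vim stood at 21.5 and 12.5 against 88.9 (-2.39, SE 0.53). Hes5, a Notch effector, went the other way, at 27.4 and 26.7 against 0.966 (4.8, SE 0.56, adjusted p = 0.00010), as did Notch1 (1.60, SE 0.43).

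Of 38 Notch and Wnt genes 10 were higher in the retina and 18 in the cortex (median -1.06). Among receptors Fzd5, the frizzled of the optic cup, stood at 38.6 and 54.2 normalised CPM against 0.274 (7.39, SE 0.95, adjusted p = 0.00021), whereas Fzd1 (-2.80, SE 0.53), Fzd8 (-2.82, SE 0.47), Notch2 (-2.24, SE 0.44) and Notch3 (-2.15, SE 0.38) were higher in the cortex. Among ligands and secreted modulators Dll4 was higher in the retina (3.90, SE 0.57), and Jag1 (-4.49, SE 0.61), Rspo3 (0 and 0 against 1596 counts) and Sfrp1 (6.53 and 4.94 against 220 normalised CPM; -5.26, SE 0.41, adjusted p = 8.5e-06) were higher in the cortex. Axin2, a target of Wnt signalling, stood at 3.57 and 3.13 against 13.8, and Lef1, its nuclear effector, at 3.18 and 1.78 against 24.2.

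Cell division genes were called in both directions. Of 30 genes of S and M phase 1 was higher in the retina, the transcription factor E2f1 (3.37, SE 0.52, adjusted p = 0.00069), and 7 were higher in the cortex, among them Rrm1, a subunit of ribonucleotide reductase (-2.42, SE 0.34), and the helicase subunit Mcm4 (-2.20, SE 0.36); the median was -0.48. Cyclin B1 (Ccnb1) stood at 16.7 and 18.0 normalised CPM against 13.8 and Pcna at 57.2 and 51.4 against 50.8, neither called. Mki67 stood at 16.2 and 92.2 against 120 and was not called (-1.15, SE 0.70, adjusted p = 0.26). The retina inputs differed widely in this gene, and in the IPs it ran from 8.42 to 15.7 in the retina and from 198 to 485 in the cortex. With the 3 inputs alone, 0 of the 7 were called higher in the cortex.

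Genes of early embryonic growth were mostly higher in the cortex, 12 of 20 against 3 higher in the retina (median -1.49). For this list the 3 inputs alone gave 4 higher in the cortex and 1 in the retina. With both cortex inputs as labelled in 12 libraries, 2 were called each way. Hmga2, a chromatin protein of early progenitors (chromosome 10, 120361275 to 120476469), stood at 2.93 and 4.71 normalised CPM against 65.9 (-4.11, SE 0.37, adjusted p = 2.4e-05). The RNA-binding genes Igf2bp1 (12.8 and 14.7 against 52.5), Igf2bp3 (2.71 and 6.29 against 29.5) and Lin28b (0.536 and 0.193 against 2.44) were called, and Lin28a, with 20 and 0 counts against 46, was not (adjusted p = 0.86). The imprinted genes Igf2 (40.8 and 53.6 against 218), Mest (24.1 and 16.9 against 124) and Peg10 (3.89 and 3.90 against 39.0) were higher in the cortex. Hmga1 (2.72, SE 0.50), Nnat, an imprinted membrane protein (3.11, SE 0.55), and Meg3 (1.66, SE 0.52) were higher in the retina. In the IPs Hmga1 was also called higher in the retina (1.76), but Nnat (-0.37, adjusted p = 0.28) and Meg3 (0.11, adjusted p = 0.77) were not called. Of 21 readers, writers and erasers of m6A and related binders, 0 were higher in the retina and 8 higher in the cortex, among them Zc3h13 (-3.09, SE 0.66) and Virma (-2.34, SE 0.44) of the methyltransferase complex. The antibody targets were not called: Ythdf1 stood at 12.7 and 11.1 against 10.8, and Ythdf2 at 4.43 and 12.2 against 17.0. Their relative Ythdf3, at 3.61 and 15.9 against 12.01, was not called in the inputs and was higher in the cortex in the IPs (-1.32, adjusted p = 0.012). With the 3 inputs alone, 0 of the 8 were called.

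Of 24 presynaptic genes 14 were called higher in the retina and 3 in the cortex (median 1.55). Cplx3, the complexin of ribbon synapses and some amacrine cells, stood at 16.6 and 8.84 normalised CPM against 0.0329 (3 counts; ratio 391, 95% counting interval 133 to 1899). Syp, a synaptic vesicle membrane protein (34.3 and 24.97 against 4.23; 2.81, SE 0.46), Snap25, a SNARE (10.4 and 26.6 against 3.28; 2.49, SE 0.55), Vamp2 (62.5 and 45.3 against 10.7; 2.33, SE 0.40) and Syt1, the calcium sensor (17.7 and 28.9 against 5.68; 2.04, SE 0.41), were called. Syn2 was higher in the cortex, with 0 and 3 counts against 76. With the 3 inputs alone 2 presynaptic genes were called higher in the retina and 0 in the cortex. The pan-neuronal list gave 3 and 5 of 20 (median -0.10), with the young-neuron gene Dcx at 4.79 and 14.6 against 64.3 (-2.73, SE 0.51) and Tubb3 not called; with the 3 inputs alone it gave 0 and 0.

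**Figure D3:**
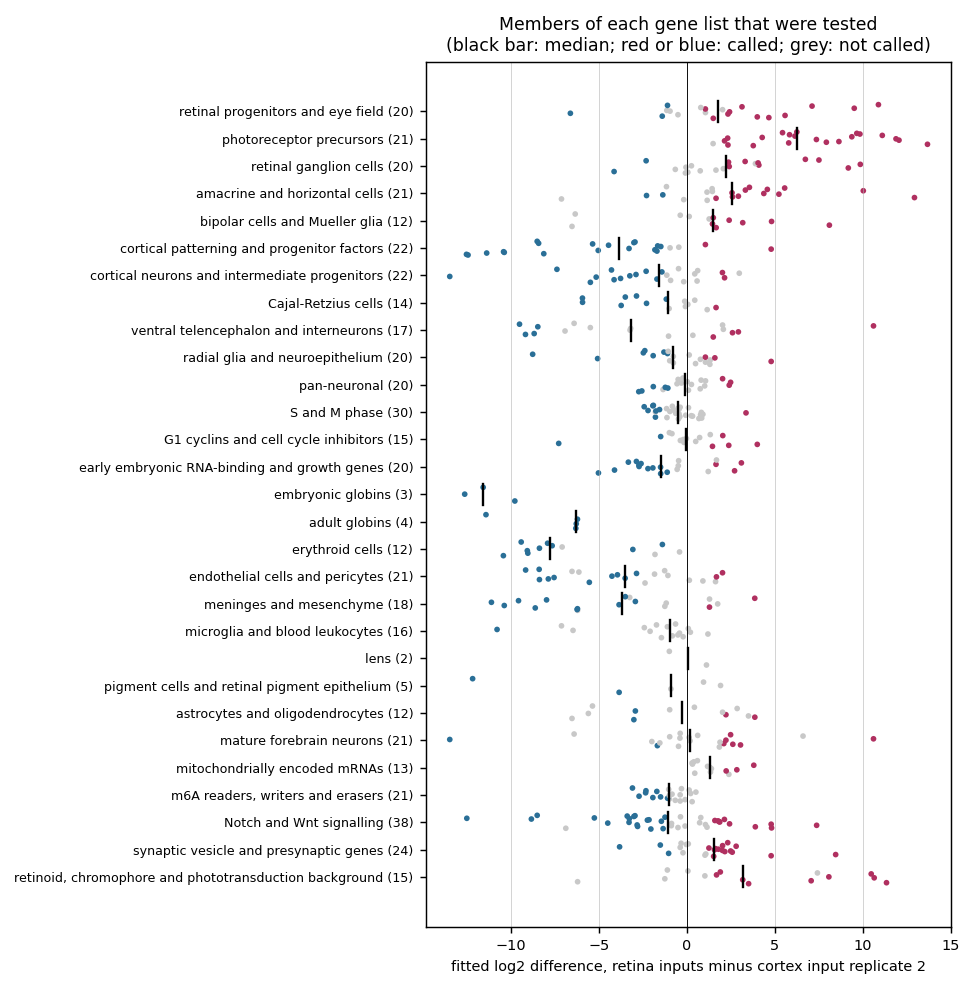
Fitted log2 difference, retina inputs minus cortex input replicate 2 (x axis), of each tested member of 29 gene lists (rows, number tested in parentheses), in red or blue where called and grey where not; a black bar marks the list's median. Photoreceptor genes lie farthest to the right (median 6.26) and embryonic globins farthest to the left; differences beyond about 7 include genes with no count in a tissue, whose fitted value depends on the prior count.

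Blood, vessel and meningeal genes were called mostly higher in the cortex. All 3 embryonic and all 4 adult globins tested were higher in the cortex. The 3 embryonic globins passed the filter through cortex input replicate 2 alone, which fixed their direction. Hbb-y, an embryonic beta-type globin (chromosome 7, 103851749 to 103853216), had 0 and 4 counts in the retina against 21704 (238 normalised CPM; -11.58, SE 1.09, adjusted p = 3.7e-05), Hbb-bh1 0 and 0 against 1736, and Hba-x 0 and 7 against 10723. The adult globins had 644 counts of Hbb-bs, 749 of Hbb-bt, 3779 of Hba-a1 and 3443 of Hba-a2 in the same library, against at most 14 in a retina input. Hba-a1 and Hba-a2, and Hbb-bs and Hbb-bt, are near-identical pairs, so that the division of reads within each pair is uncertain. Summed over the list, embryonic globins stood at 0 and 0.425 normalised CPM in the retina inputs, 375 in cortex input replicate 2 and 1.71 in the library shown apart; adult globins stood at 1.18, 1.00, 94.6 and 1065. Of the inputs, cortex input replicate 2 alone was thus high in embryonic globins, and the library shown apart was high in adult ones only. Of 12 erythroid genes 9 were higher in the cortex and 0 in the retina, including Alas2, the first enzyme of haem synthesis in red cells (0 and 0 against 377 counts), and Slc4a1, the red cell anion exchanger (3 and 0 against 1285).

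Endothelial and pericyte genes were called higher in the cortex for 10 of 21 and in the retina for 2 (median -3.51, or -2.33 at the bounds). Cdh5, the cadherin of endothelial junctions, stood at 0.250 and 0.231 normalised CPM against 11.4 (-5.54, SE 0.62, adjusted p = 7.5e-05), Flt1 at 0.500 and 0.463 against 5.50, and Tek, Tie1, Emcn and Esam had 0 counts in both retina inputs. The 2 genes higher in the retina were Kdr (35.6 and 40.0 against 11.7; 1.69, SE 0.45) and the glucose transporter Slc2a1 (90.6 and 50.3 against 17.2; 2.03, SE 0.50), and Kdr is known in retinal progenitors too. Summed over the list the retina inputs stood at 136 and 96.2 and the cortex at 68.7, of which Kdr and Slc2a1 made up the larger part in the retina. Cdh5, Flt1, Tek, Tie1, Emcn and Esam were at or near 0 in the retina inputs, but not every member was low in retina libraries. In the IPs 3 members were called higher in the retina and 13 in the cortex. Cldn5 ran from 2.30 to 8.68 normalised CPM in the retina IPs and 0.427 to 1.21 in the cortex IPs. The pericyte gene Pdgfrb ran from 4.47 to 7.88 and 4.09 to 10.1. Meningeal and mesenchymal genes were higher in the cortex for 10 of 18 and in the retina for 2 (median -3.67, or -3.37 at the bounds): Col3a1, a fibrillar collagen (0 and 6 counts against 4118), Col1a1 (13 and 10 against 2944), Dcn and Lum (0 in both retina inputs, 364 and 605 in the cortex) and Foxc1. The 2 higher in the retina were Slc6a13 and Col6a1, of which Slc6a13 was not called in the IPs (0.16, adjusted p = 0.90). Summed, the meningeal list stood at 36.7 and 27.3 in the retina inputs, 262 in cortex input replicate 2 and 97.2 to 193 in the cortex IPs. Ttr, made by choroid plexus epithelium, had 0 and 0 against 1274 counts, and Clic6, which is also found there, 0 and 0 against 798; Col12a1, Masp1 and Akap2, which overlaps Pakap, had 990, 1473 and 1051 counts against 0 and were also among the 12 largest differences toward the cortex.

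The remaining cell type lists follow. Of 16 microglial and leukocyte genes 1 was called, Mrc1, a receptor of macrophages around vessels and meninges (0 and 0 against 485 counts, at least 47.8-fold higher in the cortex), and the list's sum was 6.21 and 3.47 in the retina and 11.95 in the cortex. Lens genes were near the floor: 12 of 16 had 0 counts in both retina inputs and their sum was 0.678 and 0.965 normalised CPM. For the pigment epithelium 5 of 14 genes passed the filter, of which 0 were higher in the retina and 2, Dct and Ttr, higher in the cortex. Hox genes, which mark hindbrain and cord, did not pass the filter, with 26 of 27 at 0 in both retina inputs and 25 in cortex input replicate 2. Astrocyte and oligodendrocyte genes summed to 45.8 and 56.2 in the retina and 41.01 in the cortex, and the 12 tested had a median of -0.27. Members differed in both directions. Cnp (3.87, SE 0.47) and Mbp were higher in the retina, and Aldoc (-3.01, SE 0.41) and Pdgfra (-2.92, SE 0.51) in the cortex. Mbp, whose gene also makes a transcript in other cells, stood at 15.7 and 13.2 against 3.09 (2.23, SE 0.41).

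**Figure D4:**
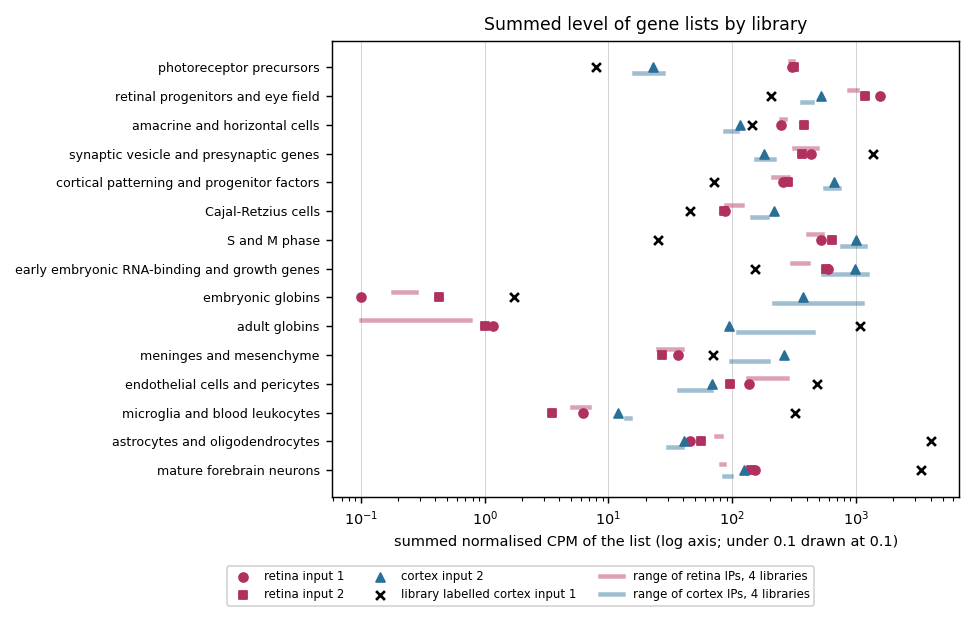
Summed normalised CPM (log axis) of 15 gene lists in the 4 inputs (red circles and squares for the retina, blue triangles for cortex input 2, black crosses for the library labelled cortex input replicate 1), with pale bars for the range over the 4 IP libraries of each tissue. Embryonic globins reach 375 in cortex input 2 alone of the inputs, and glial and mature neuron lists reach 4013 and 3342 in the library shown apart.

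The library labelled cortex input replicate 1 differed from cortex input replicate 2 in the genes just described. Its sums were 4013 for astrocytes and oligodendrocytes, 3342 for mature forebrain neurons (124 to 153 in the other 3 inputs) and 321 for microglia, and 24.9 for S and M phase genes, against 518 to 1003. It had 0 counts of Emx1, Dmrt3, Wnt8b, Lhx5 and Hmga2 and 145 of Nes. It did lack the retinal genes: it lay below both retina inputs for 74.3% of the genes called higher in the retina (47.3% of all genes tested), whereas it lay above both for 50.5% of those called higher in the cortex (31.1% of all tested). With it counted as a cortex input among 12 libraries, 760 genes were called higher in the retina and 704 in the cortex.

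The same tissue difference was read in the IPs, where 2834 genes were higher in the retina (15.9% of 17824) and 4824 higher in the cortex (27.1%), in all 43.0%. Of the genes called higher in the retina inputs 1263 (62.2%) were also called higher in the retina IPs, which is 44.6% of the latter, and 119 were called the other way. Of those higher in the cortex input 1549 (80.4%) were also called in the cortex IPs, 32.1% of the latter, and 8 the other way. In the IPs the photoreceptor list gave 20 of 21 higher in the retina and cortical patterning 20 of 22 higher in the cortex. For retinal progenitors the counts were 13 toward the retina and 4 toward the cortex, for ganglion cells 11 and 5, and for cortical neurons 1 and 13. A test of the difference between the readings called 383 genes as further toward the retina in the inputs and 60 as further toward the cortex. Mitochondrially encoded mRNAs were among the former: 3 of 13 were higher in the retina inputs and 0 in the cortex, and in the IPs 0 and 13. mt-Co3 stood at 1800 and 1863 normalised CPM in the retina inputs and 255 in the cortex (2.85, SE 0.63, adjusted p = 0.0066), but at 31.5 to 64.1 in the retina IPs and 57.6 to 814 in the cortex IPs, where the ranges overlap. With both cortex inputs as labelled, 0 of the 13 were called.

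**Figure D5:**
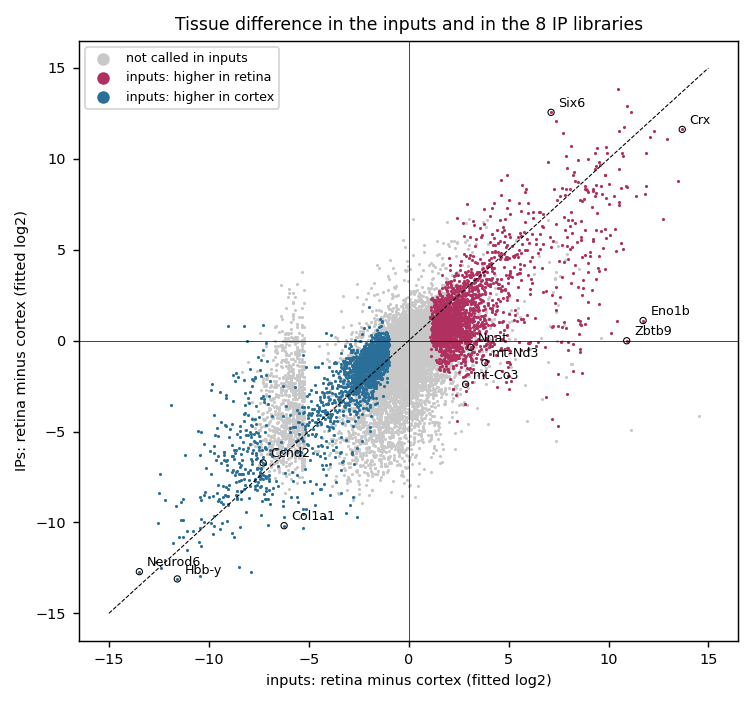
Fitted log2 difference between retina and cortex in the inputs (x axis) and in the 8 IP libraries (y axis) for each gene tested, coloured by the call in the inputs; the dashed line marks equal values. Crx, Neurod6 and Hbb-y lie far from 0 in the same direction in both readings, and Zbtb9 and mt-Co3 leave the line; the grey column left of -5 holds uncalled genes with no count in the retina inputs.

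The difference between the tissues varied with transcript length and GC content. Among the 2088 genes in the quintile of shortest transcripts the median difference was 0.68 and 26.8% were called higher in the retina, against 5.94% higher in the cortex; in the quintile of longest transcripts these were -0.67, 6.51% and 26.4%. By GC content the medians ran from -0.50 in the lowest quintile to 0.82 in the highest. The retina inputs themselves differed along the same properties, with a median of 1.23 for replicate 2 minus replicate 1 in the lowest GC quintile and -0.42 in the highest. Of 81 ribosomal protein genes 48 were higher in the retina inputs and 0 in the cortex (2 and 32 in the IPs), and of 62 histone cluster genes 31 and 1 (0 and 48 in the IPs). These groups were chosen after their values were seen. Lists with positive medians under the shift of 1.94 that library totals bring include retinal progenitors and eye field (1.77) and presynaptic genes (1.55). Bipolar cells and Müller glia (1.49) and mitochondrially encoded mRNAs (1.32) are also among them. The medians of the ribosomal protein and histone cluster genes, 1.65 and 1.82, lie under this shift too. No calls with library totals are given here for these groups. With offsets that remove the trend with length and GC from each library, they gave 25 and 5, and 9 and 15, and over all genes 1418 were higher in the retina and 2712 in the cortex, so that retinal calls were 34.3% of all calls instead of 51.3%. Under the same offsets photoreceptor genes gave 19 of 21 toward the retina and cortical patterning factors 18 of 22 toward the cortex. Amacrine and horizontal cell genes kept 12 toward the retina and 2 toward the cortex. Other lists moved: retinal progenitors and eye field gave 9 and 6 (11 and 3 without offsets), and Notch and Wnt genes 6 and 20 (10 and 18). S and M phase genes gave 1 and 12 (1 and 7), and mitochondrially encoded mRNAs 2 and 2 (3 and 0).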

How the data were processed

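RNA-seq libraries of inputs and IPs were mapped by the authors with STAR 2.5 to GRCm38 and counted with HTSeq, per the submitters' processing notes; neither their annotation nor the setting for strand is given in the sources used here. The deposited counts are whole reads per gene, and the deposited FPKM values, used only in an alternative, were made by the authors with gene lengths that are not given.

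From the counts, genes with at least 10 counts in 2 or more of the 4 inputs or in cortex input replicate 2 were tested with edgeR 4.0.16 (quasi-likelihood test, robust, TMM with retina input replicate 1 as reference, R 4.3.3) in 1 fit of 11 libraries in 6 groups with 5 residual degrees of freedom. The library labelled cortex input replicate 1 was left out of it. Contrasts were retina input minus cortex input, mean retina IP minus mean cortex IP, and the difference of both; p-values were adjusted by Benjamini and Hochberg over all genes tested, and the standard error is the log2 difference divided by the square root of F. Folds against 0 counts use 3 counts per library and are lower bounds; with 1 to 3 counts in a group, ratios carry exact 95% intervals that cover counting error only. Inputs ranged from 33127393 to 39499994 counts. Annotation came from GENCODE M21 (GRCm38) and promoters from RefSeq (GRCm38.p6).

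The gene lists were chosen with earlier results of these data known. Genes are named by a rule: the 12 largest called differences each way among protein-coding genes of at least 5 normalised CPM, up to 4 called members per list and direction, and a set of defining markers. Other list members and families were named after their values were seen. Alternatives were library totals, TMM over protein-coding genes, other filters, DESeq2 1.42.0, limma 3.58.1 on log2(FPKM + 1) and log2(FPKM + 0.1), other sets of libraries, a replicate block, and, added after seeing the data, offsets for length and GC. The test was checked on simulated data. There every library, the lone cortex input included, was drawn with the spread fitted to these data. The check therefore does not cover the assumption that this library varies like the other groups. Some genes of the lists are not reported here by name.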

Additional observations from a re-analysis of the deposited data

Results flagged for a closer look

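For some named genes the tissue difference in the inputs departed from that in the IPs, by edgeR's quasi-likelihood test of the difference between them. Values are the input log2 difference (retina minus cortex) minus that of the IPs. No explanation was tested for any of them. Zbtb9 had 169 and 143 counts in the retina inputs and 0 in cortex input replicate 2, but 6.61 to 10.5 normalised CPM in the retina IPs and 6.14 to 11.6 in the cortex IPs (10.9, adjusted p = 0.00014). For Six6 the value was -5.43 (adjusted p = 0.012), and for Nrl -4.68 (adjusted p = 0.042): both were higher in the retina in both readings. Both genes were at 0 in all 4 cortex IPs, so the size of their fitted IP difference depends on the prior count. Six6 stood at 14.7 to 21.3 normalised CPM in the retina IPs and at 31.2 and 24.8 in the retina inputs, with 18 counts in cortex input replicate 2. Col1a1, higher in the cortex in both readings, was 3.94 apart (adjusted p = 0.044). Nnat was called higher in the retina inputs and was not called in the IPs (3.48, adjusted p = 0.011). The mitochondrial mRNA mt-Co3 was higher in the retina inputs and in the cortex IPs (5.25, adjusted p = 0.0044).

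The library labelled cortex input replicate 1, which enters no comparison above, held 3342 normalised CPM of mature forebrain neuron genes, 4013 of astrocyte and oligodendrocyte genes, 321 of microglial and leukocyte genes and 1065 of adult globins. In cortex input replicate 2 these sums were 124, 41.01, 11.95 and 94.6.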

How the results depend on the processing

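The counts of called genes depended on which libraries set the spread and on the scaling, and beyond what an alternative changes by its construction the cause was not tested. The input comparison gave 2029 genes higher in the retina and 1926 in the cortex. It gave 505 and 402 with the 3 inputs alone, 760 and 704 with both cortex inputs as labelled in 12 libraries, 31 and 18 with the 4 inputs alone as labelled, and 345 and 8793 with library totals. With limma it gave 490 and 10261 on log2(FPKM + 1) and 489 and 10355 on log2(FPKM + 0.1). With no filter it gave 1751 and 2767, so that retinal calls were 38.8% of calls. Leaving out 1 library at a time gave 1611 to 2457 and 1645 to 3066, the last without retina input replicate 2. In the IPs (2834 and 4824) the counts were 1472 and 2718 with both cortex inputs, 863 and 8424 with library totals, and 926 and 8702 or 971 and 8911 with limma, and they ran from 2182 to 3668 and 3629 to 5447 with 1 library left out. DESeq2 gave 2415 and 2201 in the inputs.

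The labels do not say whether samples of the same replicate number were prepared together. Correlations of deviations from the group means ran from -0.16 to 0.13 over 10 pairs of groups. Most of these pairs set a retina group against a cortex group, and the cortex input was left out. With 2 replicates per group, the correlations cannot decide whether replicate numbers pair the samples. With the replicate number as a block 1619 and 1515 genes were called in the inputs, and with the block and the length and GC offsets together 1184 and 2271.

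Values in parentheses are log2 differences, retina minus cortex. With both cortex inputs as labelled in 12 libraries the sign turned for Ebf1 (0.47), Gad1 (-1.20), Glul (-0.70), Lhx9 (0.50), Lin28a (0.19), Mbp (-4.08), Snap25 (-0.41), Syp (-0.21), Syt1 (-0.85), Trpm1 (0.14), Tubb3 (0.55) and mt-Co3 (-0.40). With the 4 inputs alone as labelled the sign turned for Ebf1 (0.50), Gad1 (-1.23), Glul (-0.71), Lhx9 (0.53), Lin28a (0.27), Mbp (-4.08), Snap25 (-0.42), Syp (-0.22), Syt1 (-0.85), Trpm1 (0.23), Tubb3 (0.56) and mt-Co3 (-0.40). With the length and GC offsets the sign turned for Ebf1 (0.72), Gap43 (-0.037), Lhx9 (0.39), Pcna (-0.14), Trpm1 (0.61) and Ythdf1 (-0.084). With library totals the sign turned for Calb2 (-0.28), Ccnb1 (-1.62), Col6a1 (-0.66), Gap43 (-1.18), Gnat1 (-0.44), Kdr (-0.26), Meg3 (-0.28), Notch1 (-0.35), Pax6 (-0.89), Pcna (-1.85) and Ythdf1 (-1.82). With limma on log2(FPKM + 0.1) the sign turned for Calb2 (-0.26), Ccnb1 (-1.56), Col6a1 (-0.59), Gap43 (-1.14), Gnat1 (-0.33), Kdr (-0.22), Meg3 (-0.36), Notch1 (-0.32), Pax6 (-0.85), Pcna (-1.81) and Ythdf1 (-1.75). With limma on log2(FPKM + 1) the sign turned for Calb2 (-0.18), Ccnb1 (-1.31), Col6a1 (-0.35), Gap43 (-1.04), Gnat1 (-0.087), Kdr (-0.17), Meg3 (-0.24), Notch1 (-0.27), Pax6 (-0.78), Pcna (-1.76) and Ythdf1 (-1.45). With no filter the sign turned for Pcna (-0.11) and Ythdf1 (-0.077). With the replicate block the sign turned for Lin28a (0.23). With the replicate block and the offsets the sign turned for Ebf1 (0.52), Gap43 (-0.051), Lhx9 (0.27), Lin28a (0.037), Pcna (-0.24), Trpm1 (0.41) and Ythdf1 (-0.11). Leaving out 1 library at a time, the sign turned in at least 1 case for Ccnd3 (-0.92 to 0.30), Ebf1 (-0.56 to 0.20), Lin28a (-7.41 to 0.50), Pcna (-0.067 to 0.17), Trpm1 (-5.82 to 0.59), Tubb3 (-0.61 to 0.025), Ythdf1 (-0.052 to 0.23) and Ythdf3 (-1.74 to 0.32). Depth limits genes of a few counts: 3 counts equalled 0.107 and 0.116 normalised CPM in the retina inputs, so that genes under about these levels were not detectable there. With 1 cortex input, the spread among cortex inputs was not measured.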

Other observations

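Gene families outside the lists also differed between the retina inputs and cortex input replicate 2. These families were chosen after their values were seen, and their counts are descriptions. Genes that pattern the eye from dorsal to ventral were found among the T-box factors: Tbx2 stood at 35.7 and 32.4 normalised CPM against 0.373 in the cortex (log2 difference 6.5, SE 0.89, edgeR adjusted p = 0.00033), Tbx3 at 23.9 and 20.6 against 0.351 (5.97, SE 0.60), and Tbx5 had 73 and 33 counts against 0, at least 58.9-fold higher. Of 8 T-box genes tested 3 were higher in the retina and 4 in the cortex, the latter including Tbr1 and Eomes and the mesenchymal factor Tbx18 (0 and 0 against 311 counts). Of 6 Iroquois genes 3 were higher in the retina, Irx4, Irx5 and Irx6, with Irx5 at 9.998 and 6.714 against 0.428. Sox factors went mostly the other way, 9 of 17 higher in the cortex; Sox21 had 0 and 3 counts against 764. Sox8 alone of the 17 was called higher in the retina, at 31.1 and 22.5 against 0.900 (4.89, SE 0.50).

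Guidance genes were mixed in direction. Of 22 Eph receptors and ephrins 7 were higher in the retina and 5 in the cortex. Epha8 stood at 33.4 and 23.0 normalised CPM against 0.0439 (9.23, SE 0.65, adjusted p = 5.4e-06), while Epha4, at 1.96 and 6.13 against 64.5 (-4.0, SE 0.56), and Epha7, at 0.321 and 1.20 against 12.2 (-4.02, SE 0.66), were higher in the cortex. Of 29 semaphorin, plexin and neuropilin genes 6 and 5 were called. Sema4d (3.40, SE 0.48) and Sema3f (3.12, SE 0.43) were higher in the retina, and Nrp2 (-4.03, SE 0.36) and Sema3c (0 and 0 against 193 counts) in the cortex. Each of Tbx2, Tbx3, Tbx5, Sox8, Epha8, Sema4d and Sema3f was also called higher in the retina IPs, and Epha4, Epha7, Nrp2 and Sema3c in the cortex IPs.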
